A study of Mus musculus with 8 samples.

Results

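The genes described here are the replication-dependent histone genes of the mouse, taken as every protein-coding gene whose GENCODE M21 symbol begins with Hist1h, Hist2h, Hist3h or Hist4h and which had 10 or more counts summed over the 8 libraries. The rule gave 57 genes of the 55421 in the table: 5 for the linker histone H1, 15 for H2A, 14 for H2B, 11 for H3 and 12 for H4. RNA came from E14 mouse embryonic stem cells, a line derived from the blastocyst on a 129/Ola background, that lacked the miR-290-295 microRNA cluster. This deletion was shared by all groups, the controls included, and the labels do not say whether the line was 1 clone. The cells were grown in serum with LIF on gelatin and given 5 nM of a siPOOL, which combines many siRNAs to the same target transcript, and harvested after 36 h. The 4 groups received a siPOOL against Tfap4 (siTfap4), Wiz (siWiz) or Zic2 (siZic2) or a negative control siPOOL (siNeg), with 2 libraries each, called biological duplicates in the series design. Libraries were 3' end libraries primed on poly(A), in which 1 transcript gives 1 end to count. The p-values measure only the spread between these samples.

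Replication-dependent histone genes supply the histones that package DNA made in S phase, and their mRNAs are known for lacking a poly(A) tail. Their transcripts normally end just after a short stem-loop that is bound by the stem-loop binding protein Slbp and cut with the help of the U7 snRNP, and the mRNAs decay at the end of S phase. Some of these genes also make a form that runs past the stem-loop to a poly(A) signal, and a poly(A)-primed library sees the genes only through such tailed RNA or through priming at internal stretches of A. Replacement histones such as H3.3 and H2A.Z come from other genes, with ordinary polyadenylated mRNAs. A change in the counts below may therefore be a change in all mRNA of a gene or in its tailed share, and these cannot be told apart here. In bulk RNA, fewer cells expressing a gene and less RNA per cell cannot be told apart either.

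The stem-loop itself was searched on the transcript strand of the annotated transcripts as its conserved 16-base consensus. It was found in 39 of the 57 genes, in 6 forms. The following examples show the gene with the most counts, the genes with a higher level after the Tfap4 siPOOL that had an annotated loop, and 1 gene for each of the other forms, each 26 bases long and written 5′ to 3′ in DNA letters from GENCODE M21 transcripts with the stem-loop in capitals.
Hist1h1e: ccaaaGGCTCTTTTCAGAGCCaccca
Hist1h1c: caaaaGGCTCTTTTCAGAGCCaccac
Hist1h3d: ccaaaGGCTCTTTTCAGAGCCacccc
Hist1h2ae: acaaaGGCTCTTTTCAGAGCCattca
Hist2h2ac: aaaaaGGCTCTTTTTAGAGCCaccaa
Hist1h3c: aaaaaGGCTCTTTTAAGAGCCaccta
Hist1h4d: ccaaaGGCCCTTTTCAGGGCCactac
Hist1h4i: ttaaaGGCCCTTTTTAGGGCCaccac
Hist1h4b: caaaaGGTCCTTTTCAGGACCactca
The form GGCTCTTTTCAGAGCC was carried by 23 genes of the H1, H2A, H2B and H3 classes, and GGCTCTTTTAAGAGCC by 5 genes of H2B and H3. The form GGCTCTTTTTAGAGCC was found in Hist2h2ac alone. All 10 H4 genes with a loop had one of the 3 remaining forms, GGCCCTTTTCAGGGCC in 6, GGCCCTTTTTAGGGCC in 2 and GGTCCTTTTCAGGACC in 2. The other 18 genes had no such motif in the annotated transcript, and several of these gene models, such as those of Hist1h2ak, Hist1h3h and Hist1h4k, are no longer than 411 bases.

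The genes lie in 4 places of the GRCm38 genome. The Hist1 cluster holds 47 of them within 2.05 Mb of chromosome 13, from 21715763 to 23764406. Hist2 on chromosome 3 holds 7, Hist3 on chromosome 11 holds 2, and Hist4h4 on chromosome 6 is alone. Their annotated exons had a median length of 539 bases, against 3504 for all protein-coding genes. The last 300 bases of their transcripts had a median GC content of 56.7%, against 42.0% for protein-coding genes.

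The table held little RNA of these genes. In all, 17077 counts fell on the 57 genes over 8 libraries with totals of 8326675 to 13788856 counts. Few genes gave most of these counts. Hist1h1e, a linker histone gene, held 20.9% with 3575 counts, and the 8 genes with the most counts held 62.8%. The median gene had 101 counts over all libraries, 25 genes had under 100, and 9 had under 30. These 9 were Hist1h2ah with 29 counts, Hist1h2bm with 27, Hist2h2bb with 26, Hist1h3b with 25, Hist1h3f with 24, Hist2h2ab with 19, Hist1h2ao and Hist1h4j with 16 each, and Hist1h2ap with 12. At the edge of the rule, Hist1h2ap with 12 counts was the lowest gene kept and Hist1h2bn with 8 was the highest of the 10 protein-coding genes left out. Among those left out were the testis-type genes Hist1h2ba with 5 counts, Hist1h2aa with 2 and Hist1h1t with 0. Hist1h2bq, Hist1h4m, Hist2h2aa1 and Hist2h3c1 also had 0 counts, and between 89.4% and 100% of the 50-base stretches of their transcripts occur in other genes, so that a count of 0 sets no limit on their level. For Hist1h1t, which shares none, 0 counts allow up to 3 counts over the 8 libraries, or 0.0356 CPM, a limit that covers counting error only.

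The genes seen most were 3 of the 5 H1 genes and single H3, H2A and H2B genes. In the 2 siNeg libraries Hist1h1e stood at 34.2 and 38.9 CPM, counts relative to the library's total after scaling by TMM factors, which sets the libraries to 1 size, and Hist1h1c, another linker histone gene, at 16.1 and 19.9 CPM. Hist1h3d, which encodes a canonical H3, stood at 14.6 and 12.8 CPM. These 3 genes did not overlap one another in the control libraries. Hist1h2bc had 10.9 and 12.9 CPM, Hist1h2ae 8.396 and 10.7 CPM, and the linker histone gene Hist1h1b 7.23 and 10.2 CPM. Hist1h3c had 4.99 and 6.44 CPM and Hist1h2ag 3.24 and 6.53 CPM. Of the neighbours in this order, Hist1h3d and Hist1h2bc, Hist1h2ae and Hist1h1b, and Hist1h3c and Hist1h2ag overlapped in siNeg, while Hist1h2bc lay above Hist1h2ae and Hist1h1b above Hist1h3c by less than 1 CPM at the nearest libraries. The leading H4 gene, Hist1h4d, had 2.83 and 5.38 CPM in siNeg. On the scale of counts per kilobase of exons, over all 8 libraries, Hist1h1e still led with 1852.3, followed by Hist1h2ae with 1477.3 and Hist1h2ak with 1178.1. Of the 8 genes with the most counts, 7 were among the 8 highest per kilobase.

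**Figure D1:**
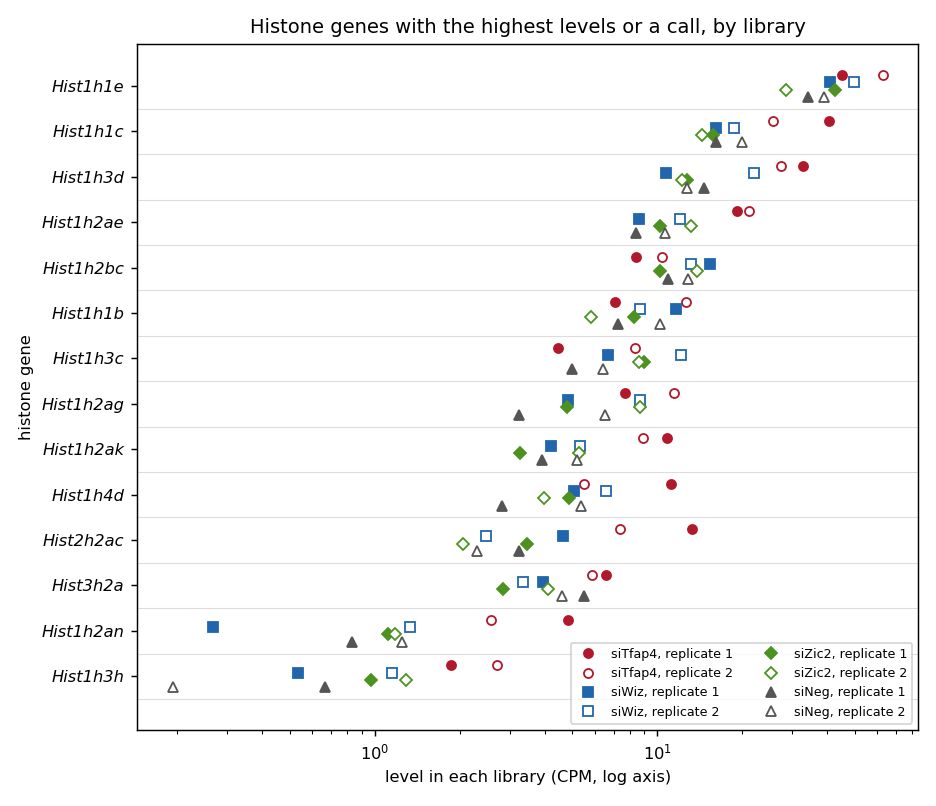
Level of each gene in each of the 8 libraries, in CPM on a log axis, for the 12 histone genes with the highest mean and for those with a call in any comparison. Filled symbols are replicate 1 and open symbols replicate 2 of each group. Both siTfap4 libraries of Hist2h2ac, at 13.3 and 7.39 CPM, lie to the right of the other 6.

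Counts were set beside how far the annotated transcripts run past the stem-loop. The 20 genes whose annotation ends 100 or more bases after the loop held 59.8% of the counts of all 57 genes, the 19 with less than 100 bases after it held 20.1%, and the 18 with no loop in the annotation held 20.2%. Without Hist1h1e, left out after the values were seen, the first share was 49.1%. Counts of single genes overlapped widely between these sets, with medians of 123.5, 114 and 94.5 counts. The annotation of Hist1h1e ran 1153 bases past its loop, that of Hist1h1c 840, that of Hist1h3d 752 and that of Hist1h2ae 151. A poly(A) signal, AATAAA or ATTAAA, stood in the last 60 annotated bases of 9 of the 20 long models. Those of Hist1h1c and Hist1h2ae were among them, and those of Hist1h1e and Hist1h3d were not. The signal also stood in 2 of the 19 short models and in 2 of the 18 with no loop. The reads' positions were not analysed here, so which end each count came from was not tested.

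**Figure D2:**
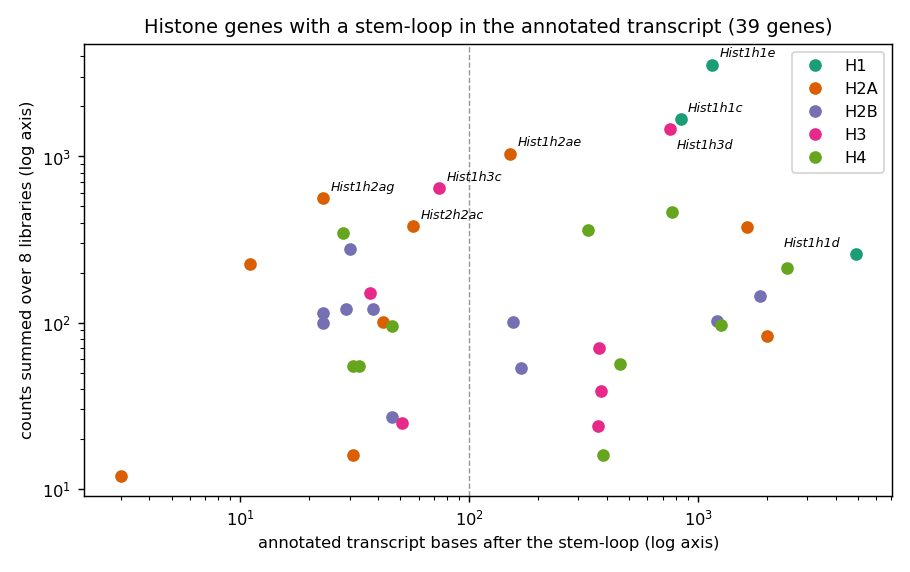
Counts summed over 8 libraries against the number of annotated transcript bases after the stem-loop, both on log axes, for the 39 genes with an annotated loop, coloured by class. The dashed line marks 100 bases. Hist1h1e, Hist1h1c, Hist1h3d and Hist1h2ae, the 4 genes with the most counts, lie to its right.

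Several counts are uncertain because histone genes are near copies of one another. In 25 of the 57 genes, at least 50% of the 50-base stretches of the annotated transcript occur in another gene too. These genes had a median of 92 counts, against 132.5 in the other 32. The labels do not say how reads with several matches were counted. Hist1h1e overlaps the annotation of Hist1h2be on the same strand of chromosome 13, and 100% of the 50-base stretches at its end occur in another gene, so that counts of these genes may be exchanged. In all, 5 genes overlapped a gene of the same strand and 18 a gene of the opposite strand. The counts of Hist1h2ae and Hist2h2ac cannot be told apart from those of an opposite-strand gene if strand was not used in counting.

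After the Tfap4 siPOOL, histone genes as a set stood higher than after the control siPOOL. Tfap4, the targeted gene, was at 12.03 and 15.7 CPM in siTfap4 and at 33.4 and 37.1 CPM in siNeg. Its fitted log2 difference was -1.34 (SE 0.25, adjusted p = 0.00417, quasi-likelihood test of edgeR, adjusted over all genes tested by Benjamini and Hochberg). The summed level of the 57 histone genes was 279.59 and 285.37 CPM in the siTfap4 libraries and 153.54 and 190.27 CPM in the siNeg libraries. The groups did not overlap, with means of 282.48 ± 4.086 and 171.91 ± 25.97 CPM (SD, n = 2). By class, the siTfap4 libraries were above both siNeg libraries for H1, at 99.7 and 108.2 against 62.1 and 74.3 CPM, and for H2A, at 73.5 and 66.8 against 30.5 and 36.8 CPM. The same held for H3, at 51.0 and 46.3 against 25.5 and 26.8 CPM, and for H4, at 31.2 and 27.2 against 13.6 and 23.5 CPM. For H2B the groups overlapped, at 24.2 and 36.8 against 21.9 and 28.8 CPM. With 2 libraries a group, no exact test of a single sum could pass 0.05, and none is given for a score over these genes.

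**Figure D3:**
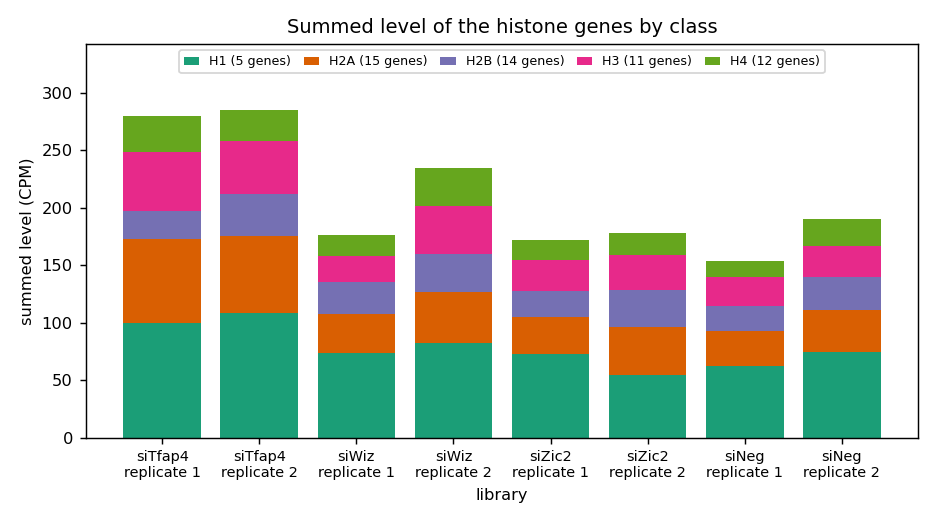
Summed level of the histone genes in each library, in CPM, stacked by class. The siTfap4 bars reach 279.59 and 285.37 CPM, and the other 6 lie between 153.54 and 234.16 CPM.

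A fit over every gene that met the count rule gave a value for all 57 histone genes. Of these, 46 had a positive log2 difference and 11 a negative one, with a median of 0.67, while among all 19046 genes of that fit 49.0% were positive and the median was -0.02. The medians by class were 1.05 for H2A, 0.58 for H4, 0.54 for H1, 0.50 for H2B and 0.47 for H3. In that fit 4 of the 57 passed the test, all higher, beside 12% of all genes in either direction and 2.66% higher. The largest negative value, -2.73, belonged to Hist1h2bm, which had 27 counts in all and an adjusted p of 0.294.

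The test proper was run on the 14647 genes that passed a filter on low counts, 44 of the 57 histone genes among them. Of these 44, 5 were higher in siTfap4 and 0 were lower at an adjusted p under 0.05. Over all genes tested 15.9% passed, 4.24% higher and 11.7% lower, so that the share of histone genes passing was not above that of all genes, while their direction differed from that of most calls. An unadjusted p under 0.05 was reached by 15 of the 44 and by 32.4% of all genes tested. Both siTfap4 libraries lay above both siNeg libraries in 28 of the 44, beside 29.6% of all genes tested, and below in 3, beside 29.5%. The 13 genes not in this count had too few counts for the filter.

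Hist2h2ac (ENSMUSG00000068855), an H2A gene of the Hist2 cluster on the minus strand of chromosome 3, 96220361 to 96220880, had 13.3 and 7.39 CPM in siTfap4 and 3.24 and 2.31 CPM in siNeg. Both siTfap4 libraries were above all 6 others, of which the highest had 4.64 CPM. It was 3.69-fold higher in siTfap4 (log2 1.88, SE 0.45, adjusted p = 0.0159). Hist1h2ae (ENSMUSG00000069272), an H2A gene on the minus strand of chromosome 13, 23570517 to 23571220, had 19.2 and 21.1 CPM in siTfap4 and 8.396 and 10.7 CPM in siNeg. Its siTfap4 libraries were again above the other 6, which reached 13.1 CPM, and the difference was 2.12-fold (log2 1.08, SE 0.29, adjusted p = 0.0247). Hist1h3d (ENSMUSG00000099583), an H3 gene on the plus strand of chromosome 13, 23575763 to 23577011, had 32.7 and 27.4 CPM in siTfap4 and 14.6 and 12.8 CPM in siNeg. This was 2.19-fold (log2 1.13, SE 0.32, adjusted p = 0.0298), and siWiz replicate 2, at 22.1 CPM, came nearest to the siTfap4 libraries.

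Hist1h1c (ENSMUSG00000036181), which encodes a linker histone and lies on the plus strand of chromosome 13, 23738808 to 23740367, had 40.4 and 25.7 CPM in siTfap4 and 16.1 and 19.9 CPM in siNeg. It was 1.83-fold higher (log2 0.88, SE 0.28, adjusted p = 0.0461), with the siTfap4 libraries far apart but both above the other 6. Hist1h3h (ENSMUSG00000101355), an H3 gene on the plus strand of chromosome 13, 21717659 to 21718069, rested on few counts: 15 and 23 in siTfap4 and 8 and 2 in siNeg. As levels these were 1.86 and 2.70 CPM against 0.67 and 0.19 CPM, a fitted log2 difference of 2.35 (SE 0.72, adjusted p = 0.0412). In this gene 93.9% of the 50-base stretches occur in other genes, so its counts are also uncertain in origin.

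The other leading genes did not pass the test, in either direction. Hist1h1e had 45.01 and 63.0 CPM in siTfap4 and 34.2 and 38.9 CPM in siNeg, a log2 difference of 0.56 (SE 0.27, adjusted p = 0.161), without overlap. Hist1h2ag had 7.69 and 11.5 CPM against 3.24 and 6.53 CPM, a log2 difference of 0.98 with an adjusted p of 0.145. Hist1h4d, the leading H4 gene, had 11.2 and 5.51 CPM against 2.83 and 5.38 CPM, a log2 difference of 1.03 with an adjusted p of 0.118. In these 3 genes both siTfap4 libraries were above both siNeg libraries, by a small margin in Hist1h4d. Hist1h2bc, the leading H2B gene, was lower in both siTfap4 libraries, at 8.43 and 10.4 CPM against 10.9 and 12.9 CPM, with a log2 difference of -0.33 and an adjusted p of 0.455. Hist1h1b and Hist1h3c overlapped between the groups, with log2 differences of 0.18 and 0.17 and adjusted p-values of 0.758 and 0.803.

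**Figure D4:**
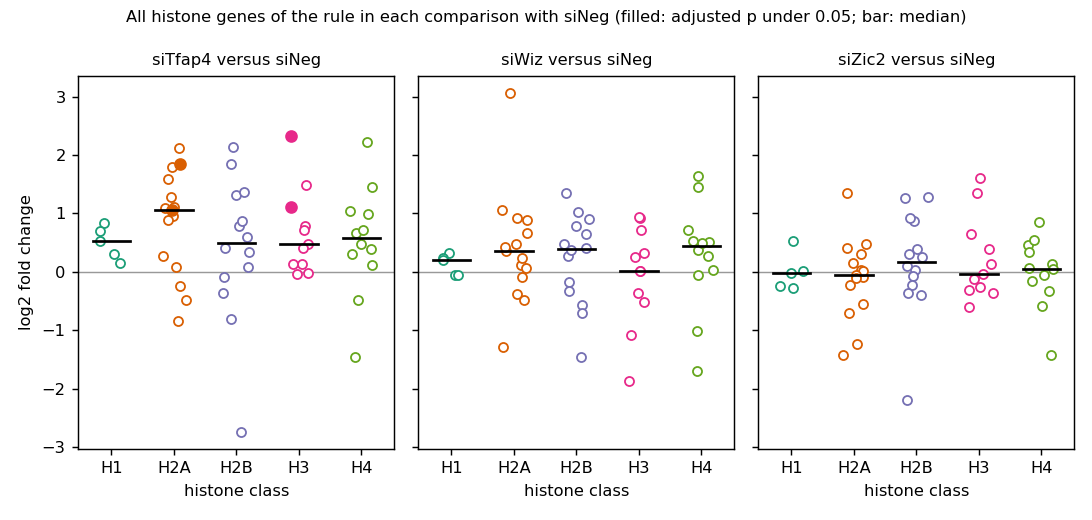
Log2 fold change of all 57 histone genes in the 3 comparisons with siNeg, from the fit over every gene with 10 or more counts, by class. Filled points had an adjusted p under 0.05 and bars mark the median. The medians of all 57 are 0.67 for siTfap4, 0.28 for siWiz and 0.02 for siZic2.

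These calls depended on single libraries, as did the higher calls over all genes tested. The latter became fewer without siTfap4 replicate 1 or either siNeg library, and more numerous without siTfap4 replicate 2. Without siTfap4 replicate 1 none of the 5 genes passed by edgeR, and the adjusted p of Hist2h2ac was 0.172, of Hist1h3d 0.171 and of Hist1h1c 0.372, with log2 differences of 1.40, 0.99 and 0.50. Without siNeg replicate 1 none passed either, and without siNeg replicate 2 only Hist1h2ae did. Without siTfap4 replicate 2 Hist1h2ae and Hist1h3h did not pass, with adjusted p-values of 0.051 and 0.122. Hist1h3h ran from a log2 difference of 1.75, when siNeg replicate 2 was left out, to 3.51, when siNeg replicate 1 was. Hist1h1c passed only when siTfap4 replicate 2 was the library left out, and without either siWiz library its adjusted p was 0.0507 and 0.0561. Without either siZic2 library, which enter the fit through the shared spread, Hist2h2ac, Hist1h2ae and Hist1h3d passed. Scaling by library totals ended the calls of Hist1h1c and Hist1h3h, with adjusted p-values of 0.0608 and 0.0506, and a fit of the compared groups alone ended that of Hist1h1c, with 0.101. The median log2 difference of the histone genes tested was 0.77 with all libraries and ran from 0.57 to 1.04 when 1 library was left out.

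GC content moved with the fold change in this comparison over the whole table. Among all genes tested, the median log2 difference between siTfap4 and siNeg rose from -0.27 for transcript ends under 35% GC to 0.68 for those of 60% and over, and the share called higher rose from 1.15% to 14.1%. In siWiz and siZic2 the medians of the same bins stayed between -0.07 and 0.07. Of the 44 histone genes tested, 13 fell in the highest bin, with a median of 1.14 beside 0.68 for all genes there. The 8 in the bin from 40% to 45% had a median of 0.28 beside -0.05, and the 8 from 35% to 40% had 0.42 beside -0.20. The 5 from 50% to 55% had 0.35 beside 0.33, and the 7 from 55% to 60% had 0.51 beside 0.53, so these lay at the level of all genes. The 2 from 45% to 50% had 1.01 beside 0.15, and the 1 under 35% had 1.34 beside -0.27. With a correction for GC content and length, the median of the 44 was 0.44 and that of all genes -0.02. Of the 44, 4 passed, beside 564 of all 14647 genes called higher and 1749 called lower. Hist1h2ae at 1.12, Hist1h3d at 1.16 and Hist1h1c at 1.17, whose ends have 44.3%, 44.7% and 37.0% GC, kept their calls. Hist2h2ac, at 57.3% GC, had 1.36 with an adjusted p of 0.0775, and Hist1h3h, at 65.7%, had 1.55 with an adjusted p of 0.164. With the correction and a replicate block together, Hist2h2ac had 1.36 with an adjusted p of 0.0138, and Hist1h3h 1.53 with 0.152. Hist1h4c, an H4 gene, passed with that correction, with or without a replicate block, and was noted after its values were seen. It had 13 and 9 counts in siTfap4 and 2 and 4 in siNeg. It met the filter on low counts through the siTfap4 libraries, where it was high, so its call gives no separate support. The part of GC content in the uncorrected values of single genes was not tested further.

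**Figure D5:**
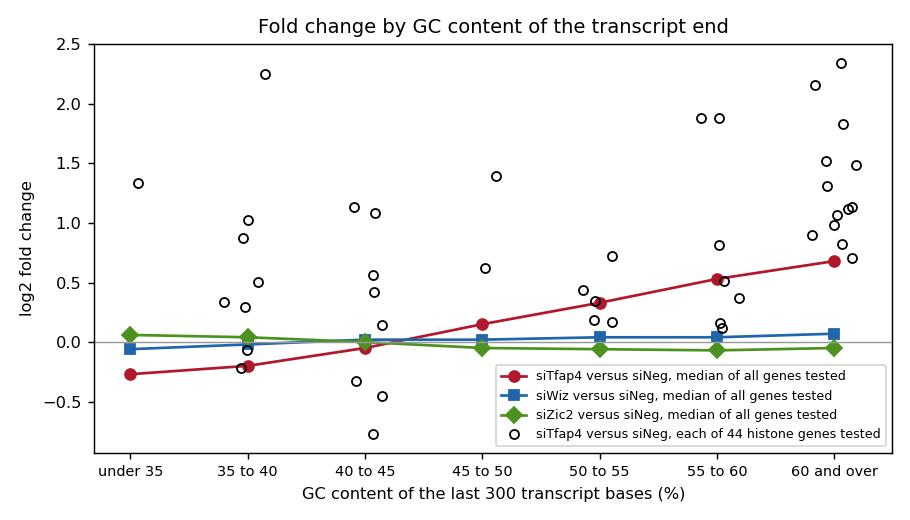
Log2 fold change by GC content of the last 300 transcript bases. Lines join the medians of all genes tested in each bin for the 3 comparisons with siNeg, and open circles are the 44 histone genes tested in siTfap4 versus siNeg. The siTfap4 line rises from -0.27 to 0.68 while the other lines stay near 0.

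Genes that act with the histones were called in both directions, and their counts are read against the 15.9% of all genes called in this comparison, 4.24% higher and 11.7% lower. Of 16 replacement histone genes 11 were tested in siTfap4 against siNeg, and 2 were higher and 4 lower, with a median log2 difference of -0.40 beside 0.01 over all genes tested. H3f3a, 1 of the 2 genes for H3.3, was at 10.8 and 16.6 CPM against 44.9 and 44.2 CPM, a log2 difference of -1.70 with an adjusted p of 0.00563. Cenpa, the centromeric H3, was at 17.5 and 71.3 CPM against 156 and 199 CPM, a log2 difference of -2.00 with an adjusted p of 0.0106. H2afx fell by 0.92 on the log2 scale and H2afy2 by 1.94, while H2afj rose by 0.87, with adjusted p-values of 0.0412, 0.042 and 0.0305. When 1 library was left out, H2afx passed in 2 of 8 fits, from -1.48 to -0.53, H2afj in 4, from 0.67 to 1.08, and H2afy2 in 5, from -2.22 to -1.57. Cenpa passed in all 8, at -3.36 without siTfap4 replicate 2 and -1.33 without siTfap4 replicate 1, and H3f3a in 7, all but the fit without siTfap4 replicate 1. With the GC and length correction H2afy2 did not pass. H2afz, for H2A.Z, was the other gene called higher, at 519 and 461 against 248 and 310 CPM. Summed over the 16 genes, replacement histones gave 1650.9 to 2306.2 CPM per library, on a scale not set per length.

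Of 35 genes of histone mRNA transcription, 3' end processing and decay, all tested, 2 were higher and 3 lower, a share near that of all genes, with a median of -0.04. Slbp, whose protein binds the stem-loop, stood at 14.1 and 14.9 CPM in siTfap4 and 11.5 and 14.4 CPM in siNeg and did not pass, nor did Npat, the coactivator of histone gene transcription, at 61.4 and 53.9 against 57.0 and 38.9 CPM. Both are named after their values were seen. Snrpd3, an Sm protein that is also part of the U7 snRNP, was higher by 1.07 on the log2 scale (adjusted p = 0.0169), and so was Upf1, a helicase of mRNA decay that also acts on histone mRNA, by 0.81 (adjusted p = 0.0432). The call of Upf1 was lost with the correction for GC content and length, at 0.19, with library totals alone and in a fit of the compared groups alone, and it passed in 1 of 8 fits with 1 library left out, the fit without siTfap4 replicate 2, over a range of 0.47 to 1.06. Snrpd3 did not pass without siTfap4 replicate 1 or siNeg replicate 1. Zfp473, a zinc finger protein of the histone 3' end complex, had -1.09, Lsm1 of the decay complex -1.88 and the cleavage factor Cstf2t -2.66, with adjusted p-values of 0.0332, 0.0066 and 0.000763. Lsm1 and Cstf2t passed in all 8 fits with 1 library left out, over -2.92 to -1.30 and -3.32 to -2.23, and Zfp473 did not pass without siTfap4 replicate 1 or without either siNeg library.

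Of 30 histone chaperone and chromatin assembly genes, all tested, 0 were higher and 5 lower, a share near that of all genes, with a median of -0.05. The 5 were Rbbp7 at -1.31, Hat1, which acetylates new H4, at -1.32, Mms22l at -1.17, Cdan1 at -1.59 and the H3-H4 chaperone gene Asf1b at -0.87, with adjusted p-values of 0.0108, 0.0184, 0.019, 0.0215 and 0.0409. None of the 5 passed by edgeR without siTfap4 replicate 1, and without siNeg replicate 1 only Rbbp7 did. Asf1b passed in 2 of 8 fits with 1 library left out, from -1.34 to -0.53, and Hat1 ran from -2.10 to -0.83. Of 31 genes of S phase, 2 were higher and 10 lower, with a median of -0.20. Mcm4 of the replicative helicase was at 38.8 and 33.3 CPM against 242 and 164 CPM, a log2 difference of -2.49 with an adjusted p of 0.00179. Rrm2, a subunit of ribonucleotide reductase, had -1.95, the flap endonuclease Fen1 -1.99, Mcm6 -1.42 and Cdk2 -1.72, with adjusted p-values of 0.00256, 0.00269, 0.0036 and 0.00563. Of these 5 only Cdk2 lost its call with 1 library left out, without siTfap4 replicate 1 or siNeg replicate 1. The histone genes called and most of the S phase genes called thus had opposite signs in the same libraries. Most calls over all genes tested were lower too, with 11.7% lower beside 4.24% higher. The cell cycle phase of the cells was not measured.

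After the Wiz siPOOL no histone gene passed the test. Wiz itself was at 16.8 and 19.7 CPM in siWiz and 49.9 and 46.1 CPM in siNeg, with a log2 difference of -1.40 that did not pass over all genes (adjusted p = 0.708) and passed with DESeq2 (adjusted p = 0.00315). Of the 44 histone genes tested, 0 were called by edgeR or by DESeq2, with 0% of all genes called by edgeR, and 0 had an unadjusted p under 0.05, beside 1.82% of all genes tested. The 2 siWiz libraries differed, with summed levels of 176.3 and 234.16 CPM, and overlapped the siNeg libraries at 153.54 and 190.27 CPM. Hist1h3d, at 10.7 and 22.1 CPM, and Hist1h3c, at 6.69 and 12.1 CPM, were lower in replicate 1 than in replicate 2. Both siWiz libraries lay above both siNeg libraries in 14 of the 44, beside 12.3% of all genes tested, and below in 3, beside 12.8%. The median log2 difference of the histone genes tested was 0.69 without siWiz replicate 1 and -0.00362 without replicate 2. Of all 57 genes, 39 had a positive log2 difference, beside 51.3% of all genes, and their median was 0.28. The 2 genes with the smallest p were Hist1h4c, with 12 and 7 counts against 2 and 4 (log2 1.65, unadjusted p = 0.0601 from edgeR's test, adjusted p = 1), and Hist1h2bf, with 15 and 20 counts against 6 and 8 (log2 1.35, unadjusted p = 0.0666, adjusted p = 1). In both genes the siWiz and siNeg counts did not overlap.

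After the Zic2 siPOOL no histone gene passed the test either. Zic2 was listed at 2.15 and 1.83 CPM in siZic2 and at 4.49 and 2.21 CPM in siNeg, a log2 difference of -0.75 that did not pass (adjusted p = 1). The summed level of the 57 histone genes was 171.87 and 177.7 CPM, between the 2 siNeg libraries. Of the 44 tested, 0 were called by edgeR or by DESeq2, with 0% of all genes called by edgeR, and 1 had an unadjusted p under 0.05, beside 0.587% of all genes tested. This was Hist1h2ai, an H2A gene with 24 and 28 counts against 8 and 12 (log2 1.34, unadjusted p = 0.0376 from edgeR's test, adjusted p = 1), in which 90.1% of the 50-base stretches occur in other genes. Both siZic2 libraries lay above both siNeg libraries in 6 of the 44, beside 12.1% of all genes tested, and below in 4, beside 11.7%. Hist1h2bf was next, with 11 and 22 counts against 6 and 8 (log2 1.25, adjusted p = 1). Of all 57 genes, 30 were positive and 27 negative, beside 51.8% of all genes positive, with a median of 0.02. In the lists of replacement histones, processing, chaperone and S phase genes, 0 genes were called in siWiz or siZic2.

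The siPOOL groups were also compared with one another. These comparisons share libraries with those above and are given side by side, not as repeats. For siTfap4 against siWiz or siZic2, higher calls over all genes tested became fewer without siTfap4 replicate 1. They also became fewer without either library of the group it was compared with. Against siWiz, 4 of the 44 histone genes were higher in siTfap4 and 0 lower, beside 4.66% of all genes higher, 10.4% lower and 15.1% in either direction. An unadjusted p under 0.05 was reached by 8 of the 44, beside 31.6% of all genes tested. Both siTfap4 libraries lay above both siWiz libraries in 17, beside 30% of all genes, and below in 5, beside 31.8%. They were Hist2h2ac at a log2 difference of 1.53, Hist1h1c at 0.93, Hist1h2ae at 0.96 and Hist1h2an at 2.21, with adjusted p-values of 0.0356, 0.0391, 0.0392 and 0.043. Hist1h2an, an H2A gene, rested on 39 and 22 counts in siTfap4 and 3 and 14 in siWiz, and 85.8% of its 50-base stretches occur in other genes. Its log2 difference was 3.72 without siWiz replicate 2 and 1.47 without siWiz replicate 1. With the GC and length correction Hist2h2ac, at 1.08, and Hist1h2an, at 1.57, did not pass, with adjusted p-values of 0.145 and 0.0974. None of the 4 passed without siTfap4 replicate 1, without siWiz replicate 1 or in a fit of the 2 groups alone. Without either siZic2 library only Hist2h2ac of the 4 passed. Without siWiz replicate 2 only Hist1h2ae and Hist1h2an of them did, and without siTfap4 replicate 2 Hist1h2ae did not, with an adjusted p of 0.0802.

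Against siZic2, 4 of the 44 were higher in siTfap4 and 0 lower, beside 8.41% of all genes higher, 14.7% lower and 23.1% in either direction. An unadjusted p under 0.05 was reached by 12 of the 44, beside 37.6% of all genes tested. Both siTfap4 libraries lay above both siZic2 libraries in 19, beside 32.9% of all genes, and below in 2, beside 33.8%. Hist2h2ac had a log2 difference of 1.88, Hist1h1c of 1.13, Hist1h3d of 1.26 and Hist1h2ak, an H2A gene at 10.8 and 8.91 against 3.26 and 5.27 CPM, of 1.22, with adjusted p-values of 0.0114, 0.0124, 0.0136 and 0.0302. Without siTfap4 replicate 1 or without siZic2 replicate 2 none of the 4 passed, and without siZic2 replicate 1 only Hist2h2ac did. With the correction for GC content and length Hist1h2ak, whose end has 67.7% GC, had 0.46 with an adjusted p of 0.332, and Hist2h2ac had 1.33 with 0.0691. Between siWiz and siZic2, 0 histone genes were called, with 0% of all genes called, and 0 had an unadjusted p under 0.05, beside 2.62% of all genes. Both siWiz libraries lay above both siZic2 libraries in 11 of the 44, beside 18.1% of all genes tested, and below in 3, beside 16.9%. Hist1h2bg at a log2 difference of 1.30 and Hist1h2ad at 1.16 had the smallest p-values there, each with an adjusted p of 1.

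Promoters were read for 51 of the 57 genes, from 250 bases before to 50 after the RefSeq start on GRCm38.p6, and searched on both strands. The TATA motif TATAAA was found in 29 of the 51, or 56.9%, against 13.6% of all 32851 RefSeq promoters. CCAAT was found in 43, or 84.3%, against 37.4%, in every H1, H2A, H2B and H3 promoter read and in 3 of 11 of H4. The octamer ATTTGCAT, known from H2B promoters and bound by POU factors, was found in 11, or 21.6%, against 1.7%, in 6 H2A and 5 H2B promoters. The E-boxes CAGCTG, the form preferred by Tfap4, and CACGTG were found in 6, or 11.8%, against 16.3%, and in 0, against 7.2% of all promoters. A match is a description of these letters and not a binding site. Some of the promoters read overlap, as those of Hist1h2ae and Hist1h2bg on opposite strands do. The same match can then be counted for both genes, so the promoters are not independent. The 100 bases before the start of 3 genes called higher in siTfap4 are shown 5′ to 3′ on the gene's strand, with CCAAT and the TATA motif, or their reverse complements, in capitals, for Hist2h2ac at chr3:96220881-96220980 (minus strand), Hist1h3d at chr13:23575663-23575762 (plus strand) and Hist1h1c at chr13:23738707-23738806 (plus strand).
Hist2h2ac: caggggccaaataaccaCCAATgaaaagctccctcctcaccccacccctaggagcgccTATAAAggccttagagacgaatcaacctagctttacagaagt
Hist1h3d: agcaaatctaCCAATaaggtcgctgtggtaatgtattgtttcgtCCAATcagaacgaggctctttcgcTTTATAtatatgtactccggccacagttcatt
Hist1h1c: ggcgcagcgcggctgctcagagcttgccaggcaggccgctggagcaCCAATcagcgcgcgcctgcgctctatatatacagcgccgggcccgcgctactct
Each of the 3 holds CCAAT in this stretch. Hist2h2ac also holds TATAAA, and Hist1h3d holds its reverse complement TTTATA.

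Markers of the labelled cells and of other cell types were checked. All 8 embryonic stem cell markers checked passed the filter on low counts, Sox2 at 682 to 904 CPM among them. Markers of other cell types passed it too, so passing does not by itself name the cells. Of the 7 fibroblast markers, Col1a2, Col3a1, Dcn and Lum stood at 0 to 0.11 CPM. Col1a1, Thy1 and Pdgfra, the rest of that list, include the 1 marker that passed the filter. That marker had a log2 difference of -0.42 in siTfap4 against siNeg and was not called. The 4 low levels therefore do not stand for the whole list. The spermatid genes Prm1 and Tnp1 had 0 counts. The other 3 of 5 germ cell markers, Ddx4, Dazl and Sycp3, were tested, with log2 differences of -0.48, -1.12 and -0.88 in siTfap4 against siNeg and adjusted p-values of 0.471, 0.102 and 0.125. Of 7 fibroblast markers 1 passed the filter on low counts, as did 4 of 6 for primitive endoderm and 4 of 6 for trophectoderm. Against siNeg, 1 primitive endoderm marker was lower in siTfap4 and 0 of the fibroblast and trophectoderm markers were called. Against siWiz, 1 trophectoderm marker was higher in siTfap4, and against siZic2 1 primitive endoderm marker was lower. In siTfap4 against siNeg 1 of the 8 stem cell markers was called higher and 1 lower, and the 8 log2 differences ran from -1.48 to 1.02. Their part in the histone values was not tested.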

How the data were processed

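Reads of 3' end libraries made with a QuantSeq kit from poly(A) RNA were trimmed with Trim Galore and the build was GRCm38, per the submitters' processing notes. The deposited values are raw counts per Ensembl gene, per the file headers and whole-number values. The aligner, counter, annotation, strand setting, use of molecular identifiers and treatment of reads with several matches are not named by the labels or headers. Of 55421 genes, 55154 matched GENCODE M21.

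The members and gene lists were chosen with earlier results of these data known. Counts were filtered with filterByExpr, scaled with TMM then tested by quasi-likelihood in edgeR 4.0.16, run under R 4.3.3 on all 8 libraries together, with 1 mean per group and Benjamini-Hochberg adjustment over 14647 genes at 0.05. The biological coefficient of variation was 22.2%. The script was tested on simulated data. Named with values are the 8 members with the highest mean CPM, the top member of each class, the members called in each comparison or the 2 with the smallest p, low and testis-type members by counts, up to 5 called genes of each other list, and the targets. Replicate libraries were checked against sampling noise, and in all 4 groups they differed by more than it. Alternatives were RLE factors, library totals, other filters, the compared groups alone, a replicate block, a GC and length correction, leaving out each library, DESeq2 1.42.0 and a minimum of 1.5-fold.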

Additional observations from a re-analysis of the deposited data

How the results depend on the processing

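The number of histone genes called in siTfap4 against siNeg was 5, and 3 with library totals alone, 0 against a minimum of 1.5-fold, 9 with the replicate block and 0 to 5 when 1 library was left out. Against siWiz it was 4, and 2 with the GC and length correction, 0 against 1.5-fold, 0 in a fit of the compared groups alone and 0 to 4 when 1 library was left out. Against siZic2 it was 4, and 7 with the replicate block and GC and length correction together, 1 against 1.5-fold and 0 to 6 when 1 library was left out. In the other 3 comparisons it was 0 under every alternative run. Every histone gene called under any of these was higher in siTfap4. Over all genes, 621 of 14647 were higher against siNeg, 432 with library totals, 22 against 1.5-fold and 1147 with the block. Against siWiz 682 were higher, 585 with the GC and length correction, 46 against 1.5-fold and 349 of 13700 in the compared groups alone. Against siZic2 1232 were higher, 1450 with the block and correction together and 122 against 1.5-fold. The cause of these shifts was not tested, and a fit that leaves a library out also has fewer libraries. Same-numbered libraries of different groups had correlations of their deviations from -0.0427 to 0.332, over 0.1 in 5 of 6 pairs of groups but not in all, and no label says what a number marks, so the samples are not treated as paired. The mean summed level in siTfap4 was 273.25 CPM with library totals alone, and without Hist1h1e the mean sums were 228.5 CPM for siTfap4, 159.89 CPM for siWiz, 139.24 CPM for siZic2 and 135.36 CPM for siNeg. The share of counts in genes annotated 100 or more bases past the loop was 49.1% without Hist1h1e, an alternative chosen after seeing the data. Values near 0 changed sign: Hist1h1b in siTfap4 against siNeg was -0.13 with the GC and length correction, -0.12 with the block added and -0.31 to 0.53 with 1 library left out, Hist1h3c was -0.09, -0.12 and -0.36 to 0.54, and H1fx in siWiz against siNeg was -0.11 to 0.70 with 1 library left out. With a median of 101 counts a gene over 8 libraries, depth limits what could be seen in most histone genes.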

Other observations

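Internal stretches of A, at which an oligo-dT primer can also start, varied among the histone genes. The annotated transcript of Hist1h2ac, an H2A gene, holds a run of 15 A and had 83 counts over the 8 libraries. Hist1h2ao and Hist1h2ap each hold a run of 12 A and had 16 and 12 counts. Hist1h2be holds a run of 11 A and had 145 counts. Hist1h1e, with the most counts at 3575, has no run longer than 6 A. The longest runs in Hist1h2ae, with 1040 counts, and Hist1h2bc, with 1010, are of 8 A. At most 12 of any 20 bases in a row are A in Hist1h1e, 13 in Hist1h2ae and 14 in Hist1h1b, which had 753 counts. The most is 17 in Hist1h2ac and 18 in Hist1h1d, which had 259 counts. These genes were chosen after their values were seen, and the positions of the reads were not analysed here.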
